A study of Mus musculus with 16 samples.

Results

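The receptors described here are 10 mouse odorant receptors that earlier work tied to an odorant, to broad tuning or to a place in the map of the olfactory bulb. They were listed by their published names, and each was looked up by its Olfr symbol in the annotation of the array. A probe was found for 9 of the 10, out of 1080 odorant receptor genes and 19505 genes measured in all, and each of the 9 had 1 probe. No probe carried the symbol Olfr151 (M71), which was not analysed here.

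Cells came from S100a5-tauGFP mice, with green fluorescent protein (GFP) under the promoter of S100a5, an activity-dependent gene of olfactory sensory neurons. All 24 mice, of both sexes and 7 to 12 weeks old, carried the reporter, and the labels do not say in how many copies. For 40 h they sat singly in clean air flowing at 3.1 L/min, and from hour 26 on they received a 10 s pulse every 20 min of either indole/ionone (odor) or filtered air (vehicle). Olfactory mucosa of 3 mice was pooled, dissociated and sorted, which gave 4 groups of 4 samples, namely odor GFP+, odor GFP-, vehicle GFP+ and vehicle GFP-, from 8 pools.

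Odorant receptors are G protein-coupled receptors of the sensory neurons in the nasal epithelium, and each mature neuron expresses a single receptor allele. An odorant that binds the receptor opens a cyclic nucleotide-gated channel through cAMP, and repeated firing raises activity-dependent genes such as S100a5. Neurons that share a receptor send their axons to the same few glomeruli of the bulb. In bulk samples such as these, fewer neurons of a type and less mRNA per neuron cannot be told apart.

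Positions are those of the RefSeq annotation of the mouse assembly GRCm38.p6. Olfr2 (I7, MOR103-15), known for its response to octanal, spans chr7:107000875-107002605. Olfr17 (P2, MOR263-5), whose tagged mouse lines served to trace axons to single glomeruli, spans chr7:107097467-107098414, 94.9 kb away on the same chromosome. Olfr16 (MOR23), a receptor for lyral, spans chr1:172956768-172957817. Olfr73 (mOR-EG, MOR174-9), a receptor for eugenol, spans chr2:88034196-88035137, and Olfr1019 (MOR180-1), known for its response to the fox odor trimethylthiazoline, spans chr2:85840857-85841789.

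Olfr160 (M72, MOR171-3), a receptor for acetophenone, spans chr9:37711348-37712280. Its close relative Olfr151 (M71, MOR171-2) lies 17.7 kb away at chr9:37729977-37731061, and the annotation lists it as a transcribed pseudogene. Since these receptors are near-identical, the Olfr160 probe may also read M71 mRNA, which was not tested. The broadly tuned receptors Olfr15 (MOR256-17, OR3) and Olfr124 (MOR256-3, SR1) lie at chr16:3838975-3839913 and chr17:37805069-37806190. Olfr1440 (MOR215-1), a receptor for muscone, lies at chr19:12394265-12395212.

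Homeodomain proteins such as Lhx2 are known to bind TAAT-core sites near receptor start sites. RefSeq promoter windows were at hand for 7 of the 9 measured receptors, and the 250 bases before the annotated start were searched on both strands for TAATTA, which reads the same on both, and for TAATGA, which reads TCATTA on the other. A match was found in 2 of the 7 windows. Of 925 receptor windows of the same length, 17.9% held TAATTA, 25.7% held TAATGA and 38.2% held either, against 12.5% with either among 32851 windows of all genes. The windows with a match belong to Olfr16, low in GFP+ cells below, and Olfr124, whose difference was positive, and are shown for that contrast on GRCm38.p6, plus strand, at chr1:172956518-172956767 and chr17:37804819-37805068. Capitals mark the matches, which do not overlap.
Olfr16: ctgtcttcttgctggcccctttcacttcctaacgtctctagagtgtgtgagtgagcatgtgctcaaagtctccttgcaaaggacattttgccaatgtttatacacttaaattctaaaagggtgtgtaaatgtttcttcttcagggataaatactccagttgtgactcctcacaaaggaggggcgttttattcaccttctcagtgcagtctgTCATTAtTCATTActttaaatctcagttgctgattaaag
Olfr124: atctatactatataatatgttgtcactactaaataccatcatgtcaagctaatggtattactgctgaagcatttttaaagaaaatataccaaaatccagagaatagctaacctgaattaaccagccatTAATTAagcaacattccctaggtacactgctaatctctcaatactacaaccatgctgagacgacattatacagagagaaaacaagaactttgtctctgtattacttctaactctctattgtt
The Olfr16 window ends 29 bases before the first ATG of the model. In 5 of the 7 windows the annotated start lies within 4 bases of an ATG, so that the model begins at the coding sequence and the window need not be a promoter. A match is a description of these letters and not a bound site, and the motifs were chosen after the sequences were seen.

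Values are log2 intensities, and a level is comparable between samples for 1 probe but not between probes. Array medians ran from 6.05 to 6.39, and the 23 antigenomic probes that measure background had medians of 5.63 to 6.05 per array, with the brightest of them at 7.19 to 7.89. S100a5 averaged 16.30 ± 0.15 in odor GFP+ and 14.99 ± 0.44 in odor GFP- samples, and 16.08 ± 0.03 in vehicle GFP+ and 14.81 ± 0.29 in vehicle GFP- samples (SD, n = 4 each). Omp, the marker of mature sensory neurons, was at 18.50 and 18.48 in odor and vehicle GFP+ and at 18.44 and 18.40 in odor and vehicle GFP- samples, and was thus high in both fractions. Of 45 measured markers of cells other than mature sensory neurons, 34 were lower in GFP+ cells of odor and 35 of vehicle pools. In either arm 0 of the 45 were higher. Over all genes 10.6% were lower in odor and 10.8% in vehicle pools. Their summed log2 level was 16.05 to 16.30 in odor GFP+, 18.72 to 19.73 in odor GFP-, 16.05 to 16.31 in vehicle GFP+ and 18.72 to 19.83 in vehicle GFP- samples. Of the 6 markers of immature sensory neurons within the 45, such as Gap43 and Gng8, 4 were lower in GFP+ cells of both arms. The part of these cells in the receptor differences was not tested. In the pools numbered 3 of both arms, 3 Y-linked genes lay at 2.76 to 4.09, against 6.42 to 12.09 in the other pools. The lower range is under the background medians, so no male signal was seen in the pools numbered 3. Differences by sex and by that number cannot be told apart. Results that rest on the pools numbered 3 are given without them where they change.

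The sort divided the 9 receptors into those well above, those near and those well below parity between GFP+ and GFP- cells of odor-exposed mice. The M72 receptor Olfr160 and the broadly tuned Olfr15 were 11.8-fold and 6.51-fold higher in GFP+ cells. The lyral receptor Olfr16, the muscone receptor Olfr1440 and the fox odor receptor Olfr1019 were 7.39-fold, 13.1-fold and 32.6-fold lower there, as measured. Some of their GFP+ samples were not above the brightest background probe of their own array, and with those samples raised to that probe the folds were 7.27, 11.7 and 30.4. Olfr73 was 1.6-fold lower, and Olfr124, Olfr17 and Olfr2 did not pass the test. By limma on the within-pool differences, adjusted over all 19505 genes at 0.05, 6 of the 9 receptors passed, 2 higher and 4 lower. The same test called 18.6% of all genes, 7.96% higher and 10.6% lower, and 66.3% of all odorant receptors, 43.3% higher and 23% lower, so the share called among the 9 was near that among receptors. Their median difference was -0.68 on the log2 scale, against 0.47 over the 1080 receptors and 0.11 over all genes.

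**Figure D1:**
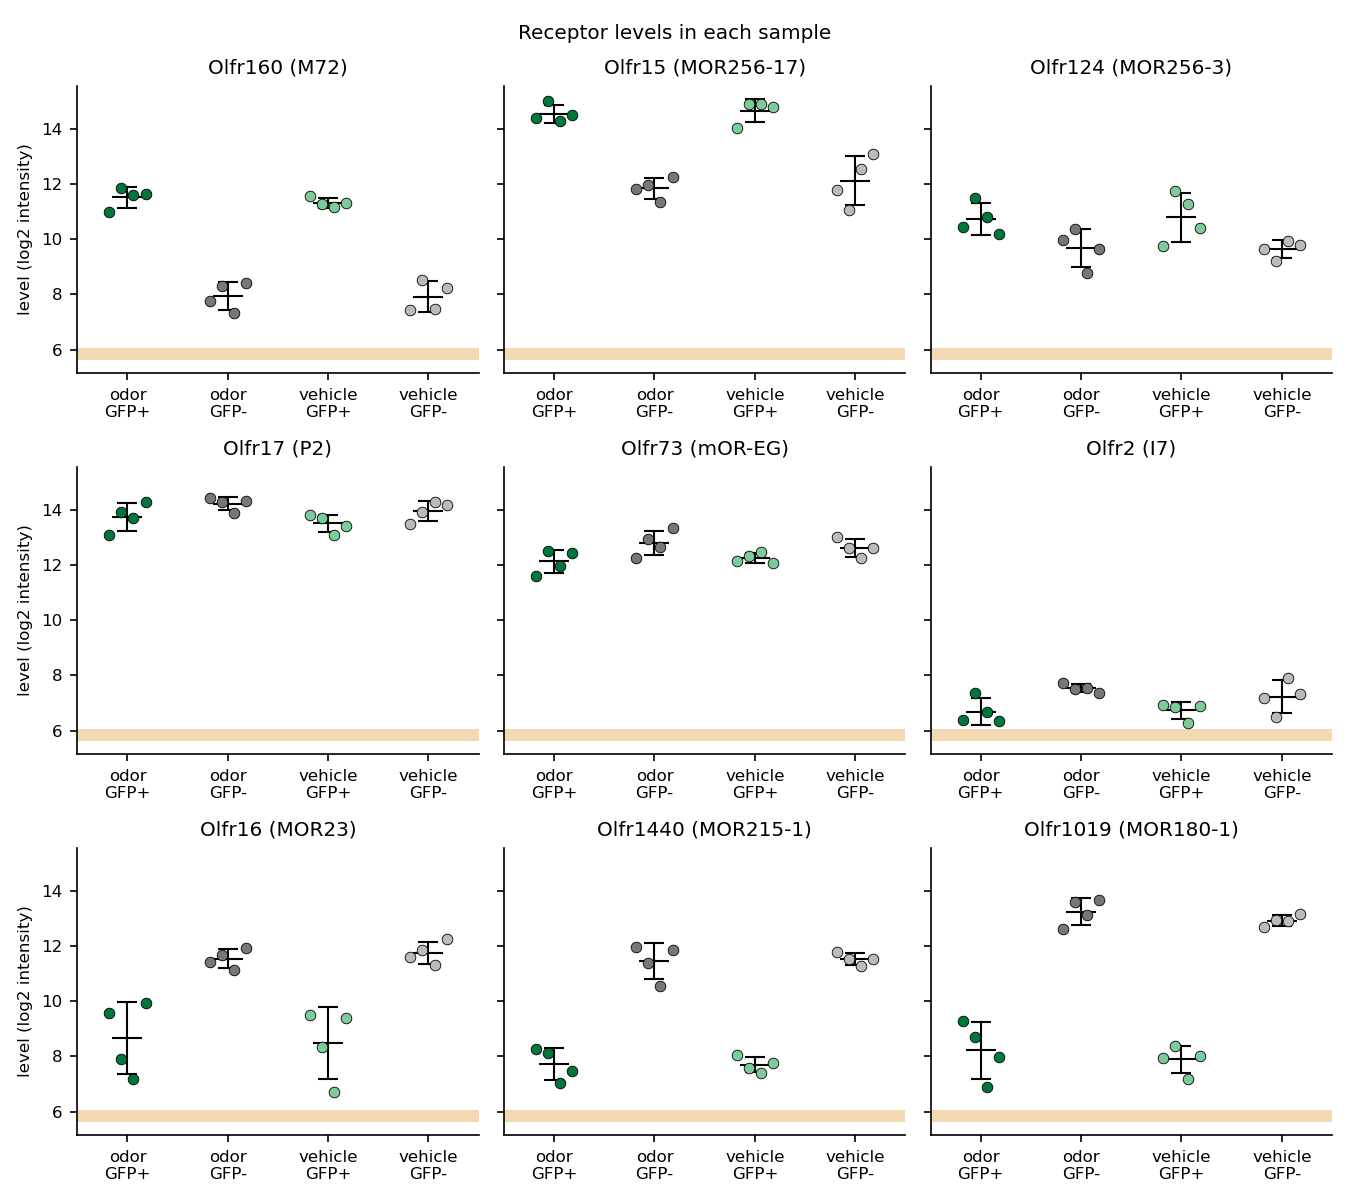
Log2 level (y axis) of each of the 9 receptors in odor GFP+, odor GFP-, vehicle GFP+ and vehicle GFP- samples. Points are samples, bars the mean and SD of 4 samples, and the shaded band the range of the background probes' medians, 5.63 to 6.05. For Olfr160 and Olfr15 all GFP+ points lie above all GFP- points, and for Olfr16, Olfr1440 and Olfr1019 all lie below.

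Olfr160 had levels of 10.98, 11.84, 11.62 and 11.64 in the GFP+ samples of odor replicates 1 to 4. Its levels in the GFP- samples of the same pools were 7.77, 8.31, 7.32 and 8.40. The fractions did not overlap, and the GFP- levels, though low, were above the brightest background probe of their own array in 4 of 4 samples. In replicate 3 the margin was small, 7.32 against 7.26, so background can limit the size of the difference. The difference within pools was 3.57 ± 0.24 (SE, n = 4 pools, adjusted p = 7.79e-07), and 95.7% of odorant receptors had a lower one.

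Olfr15 had levels of 14.38, 15.02, 14.28 and 14.50 in odor GFP+ and 11.81, 11.96, 11.36 and 12.24 in odor GFP- samples. All GFP+ samples were above all GFP- samples, although this receptor was well measured in both fractions. Its difference was 2.70 ± 0.28 (SE, n = 4 pools, adjusted p = 2.80e-05), above that of 88.8% of receptors. Olfr124, from the same MOR256 subfamily, had levels of 10.45, 11.51, 10.79 and 10.19 in odor GFP+ and 9.97, 10.37, 8.76 and 9.64 in odor GFP- samples. Here the ranges overlapped, the difference of 1.05 ± 0.35 (SE, n = 4 pools) had an adjusted p of 0.062, and 61.4% of receptors lay below it.

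Olfr17 (P2) was high in both fractions, at 13.08, 13.94, 13.69 and 14.27 in odor GFP+ and 14.42, 14.29, 13.87 and 14.31 in odor GFP- samples. Its ranges overlapped and its difference was -0.48 ± 0.26 (SE, n = 4 pools, adjusted p = 0.232). Olfr73, the eugenol receptor, had levels of 11.59, 12.52, 11.96 and 12.44 in odor GFP+ and 12.27, 12.94, 12.66 and 13.34 in odor GFP- samples. The 2 ranges overlapped, yet every pool had the lower level in GFP+ cells, with differences from -0.90 to -0.42. The mean of -0.68 ± 0.17 (SE, n = 4 pools) passed with an adjusted p of 0.0186. This call was lost with median centring of the arrays, with unmoderated variances, without the pools in the fit and without odor replicate 1, 3 or 4, with adjusted p up to 0.103.

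Olfr2 (I7) was dim throughout, at 6.37, 7.38, 6.67 and 6.35 in odor GFP+ and 7.74, 7.52, 7.54 and 7.38 in odor GFP- samples, under or close to the brightest background probes. The fractions met at 7.38, and the difference of -0.85 ± 0.28 (SE, n = 4 pools) had an adjusted p of 0.0579. It passed the test under 5 of 16 alternatives, among them receptor-median centring. Its GFP+ level was above the brightest background probe in 0 of 4 samples of either arm, and with levels raised to that probe the difference was 0.14 in odor and 0.10 in vehicle pools, so no fold is given.

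**Figure D2:**
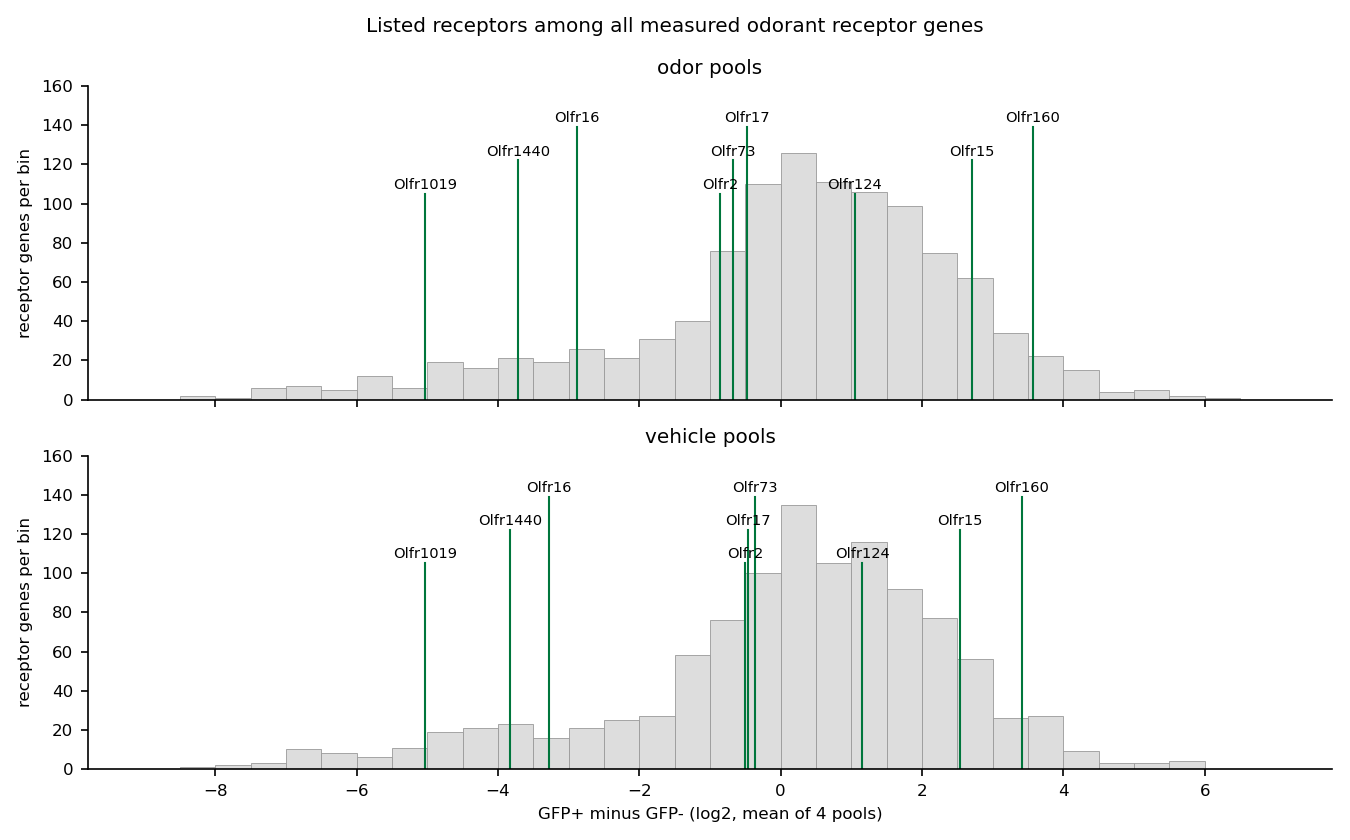
Number of odorant receptor genes (y axis, bins of the difference GFP+ minus GFP-, log2, x axis) in odor pools (top) and vehicle pools (bottom), with the 9 receptors as vertical lines whose heights carry no meaning. In odor pools Olfr160 has 45 receptors above it and Olfr1019 has 38 below it.

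The receptors low in GFP+ cells were clearly measured in GFP- cells. Olfr16 (MOR23) had levels of 9.59, 7.92, 7.20 and 9.92 in odor GFP+ and 11.44, 11.67, 11.13 and 11.92 in odor GFP- samples. The fractions did not overlap, but the GFP+ samples spanned more than 2 log2 units, and 3 of 4 were above the brightest background probe. The difference was -2.89 ± 0.42 (SE, n = 4 pools, adjusted p = 3.81e-04), below that of all but 11.1% of receptors.

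Olfr1440 (MOR215-1) had levels of 8.28, 8.13, 7.04 and 7.49 in odor GFP+ and 11.98, 11.39, 10.55 and 11.86 in odor GFP- samples. Olfr1019 (MOR180-1) had levels of 9.28, 8.72, 6.90 and 7.98 in odor GFP+ and 12.61, 13.58, 13.12 and 13.66 in odor GFP- samples. Neither receptor's fractions overlapped, and in GFP+ cells 2 of 4 samples of Olfr1440 and 3 of 4 of Olfr1019 were above the brightest background probe. Olfr1440 differed by -3.71 ± 0.17 (SE, n = 4 pools, adjusted p = 3.80e-08) and Olfr1019 by -5.02 ± 0.37 (SE, n = 4 pools, adjusted p = 1.72e-06). As measured, 7.9% and 3.5% of receptors had lower differences than these, a place that the background can limit, and both calls held in 16 of 16 alternatives, as did those of Olfr160, Olfr15 and Olfr16.

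In mice that breathed filtered air, the same 5 receptors passed at the 2 ends. Olfr160 and Olfr15 were 10.6-fold and 5.8-fold higher in their GFP+ cells, and Olfr124 was 2.23-fold higher. Olfr16, Olfr1440 and Olfr1019 were 9.68-fold, 14.2-fold and 32.8-fold lower as measured, and 8.78-fold, 13.5-fold and 32.4-fold lower with the same raising to background, whereas Olfr17, Olfr73 and Olfr2 did not pass. Altogether 6 of the 9 receptors were called, 3 higher and 3 lower. The same test called 19.7% of all genes, 8.86% higher and 10.8% lower, and 68.8% of receptors, 43.2% higher and 25.6% lower. The median difference of the 9 was -0.46, against 0.40 over receptors and 0.11 over all genes. The arms have no sample in common, but both were fitted together and share 1 variance per gene.

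Olfr160 had levels of 11.58, 11.26, 11.17 and 11.32 in vehicle GFP+ and 7.45, 8.54, 7.46 and 8.24 in vehicle GFP- samples. Olfr15 had levels of 14.03, 14.90, 14.91 and 14.78 in vehicle GFP+ and 11.78, 11.06, 12.56 and 13.08 in vehicle GFP- samples. For both, the fractions did not overlap. The GFP- levels of Olfr160 were above the brightest background probe of their array in 4 of 4 samples. In replicate 1 the margin was small, 7.45 against 7.44, so background can limit its difference here too. The differences were 3.41 ± 0.24 for Olfr160 (SE, n = 4 pools, adjusted p = 1.22e-06) and 2.54 ± 0.28 for Olfr15 (adjusted p = 4.63e-05).

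Olfr124 had levels of 9.75, 11.75, 11.26 and 10.42 in vehicle GFP+ and 9.65, 9.20, 9.94 and 9.78 in vehicle GFP- samples. The ranges overlapped through replicate 1, whose within-pool difference was 0.10, while that of replicate 2 was 2.55. The mean of 1.15 ± 0.35 (SE, n = 4 pools) passed with an adjusted p of 0.0402, in 8 of 16 alternatives. It did not pass with receptor-median centring, with unmoderated variances, without the pools in the fit, without odor replicate 2, without vehicle replicate 2, 3 or 4, or without both pools numbered 3, with adjusted p up to 0.192. Over both arms the Olfr124 difference was positive in 8 of 8 pools.

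**Figure D3:**
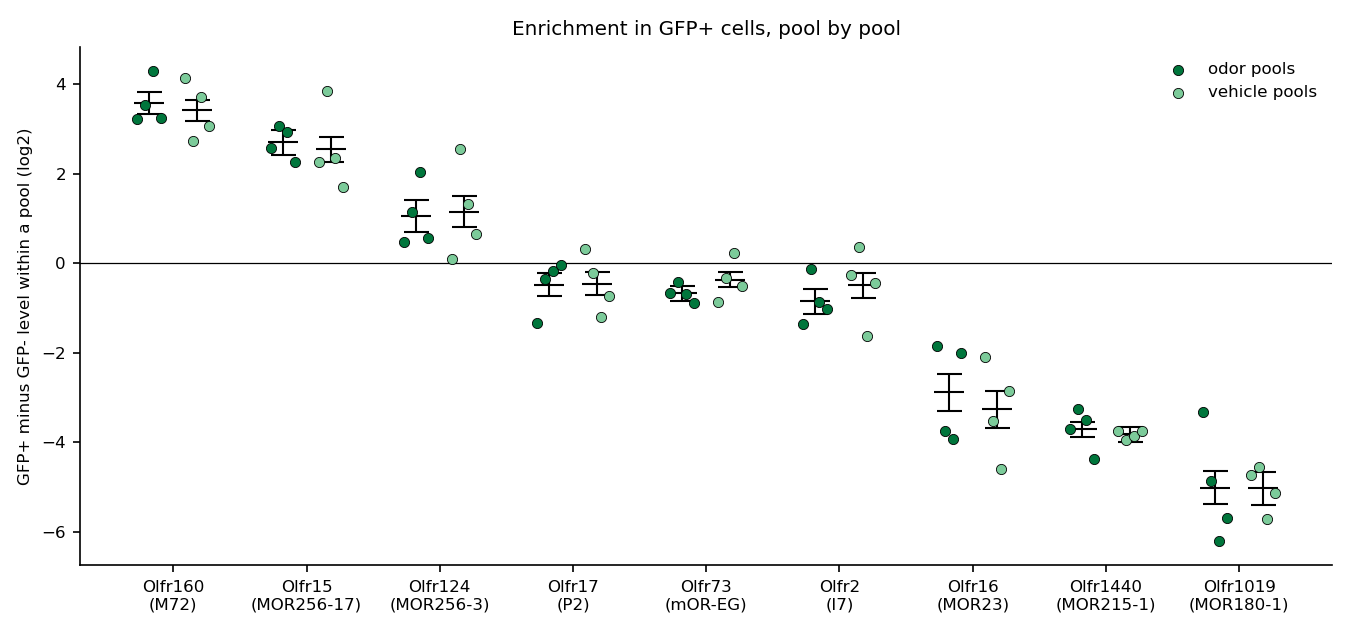
GFP+ minus GFP- log2 level within each pool (y axis) for the 9 receptors (x axis), odor pools left of vehicle pools. Points are pools, and bars the mean of 4 pools with its SE from the fit. Olfr160, Olfr15 and Olfr124 lie above 0 in all 8 pools, and Olfr16, Olfr1440 and Olfr1019 below 0 in all 8.

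Olfr17 was at 13.81, 13.69, 13.10 and 13.43 in vehicle GFP+ and at 13.49, 13.91, 14.30 and 14.17 in vehicle GFP- samples, a difference of -0.46 ± 0.26 (adjusted p = 0.25). Olfr73 was at 12.14, 12.31, 12.47 and 12.09 in vehicle GFP+ and at 13.02, 12.63, 12.24 and 12.60 in vehicle GFP- samples, a difference of -0.37 ± 0.17 (adjusted p = 0.173). Olfr2 was at 6.93, 6.84, 6.27 and 6.88 in vehicle GFP+ and at 7.18, 6.49, 7.92 and 7.33 in vehicle GFP- samples, a difference of -0.50 ± 0.28 (adjusted p = 0.255). For each of the 3 the fractions overlapped, and 1 of the 8 pools had a positive difference and 7 a negative one. Olfr73 passed in vehicle pools without vehicle replicate 3 or without both pools numbered 3.

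Olfr16 was at 9.50, 8.34, 6.70 and 9.38 in vehicle GFP+ and at 11.60, 11.87, 11.31 and 12.24 in vehicle GFP- samples. Olfr1440 was at 8.04, 7.57, 7.41 and 7.76 in vehicle GFP+ and at 11.79, 11.52, 11.27 and 11.52 in vehicle GFP- samples. Olfr1019 was at 7.96, 8.38, 7.19 and 8.02 in vehicle GFP+ and at 12.70, 12.93, 12.92 and 13.15 in vehicle GFP- samples. No fraction of these receptors overlapped the other. The differences were -3.27 ± 0.42 for Olfr16 (SE, n = 4 pools, adjusted p = 1.40e-04), -3.83 ± 0.17 for Olfr1440 (adjusted p = 3.14e-08) and -5.03 ± 0.37 for Olfr1019 (adjusted p = 1.74e-06).

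Over both arms together, all 8 GFP+ samples lay apart from all 8 GFP- samples for 5 of the 9 receptors, Olfr160, Olfr15, Olfr16, Olfr1440 and Olfr1019. Such separation held for 11.3% of all genes and for 49% of odorant receptors. When the 4 groups were ordered by mean level, the GFP+ groups were neighbours in all 9 receptors, and so were the GFP- groups. For these 5 that order follows from the separation. Odor and vehicle samples of the same fraction overlapped in each of the 9 receptors.

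The broadly tuned receptors of the MOR256 subfamily had unequal differences in the sort. The within-pool difference of Olfr15 exceeded that of Olfr124 in 8 of 8 pools, by 0.88 to 2.15 on the log2 scale and by 1.52 ± 0.51 on average (SD, n = 8 pools). A two-sided exact sign-flip permutation test over the pools gave p = 0.00781, the smallest that 8 pools allow. The test takes the pools as independent. By replicate number, the odor pool gave 2.09 and the vehicle pool 2.15 for number 1, 1.93 and 1.29 for number 2, 0.88 and 1.03 for number 3, and 1.71 and 1.06 for number 4. Over the 4 numbers, each as the mean of its pools, the exact sign-flip test gave p = 0.125, the smallest that 4 values allow. It was the single pair of this kind that could be tested, since its planned counterpart of M71 and M72 lacked a probe for M71. Leaving out 1 pool gave means of 1.43 to 1.61. Other members of the subfamily spread further, from Olfr1384 at -6.87 to Olfr222 at 4.43 in odor pools. Of its 48 measured members 17 were higher and 10 lower there, against 43.3% and 23% of all receptors.

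Whether the odor changed these receptors in activated neurons was asked in GFP+ cells, the fraction sorted for the activity reporter. None of the 9 receptors passed the test there, either higher or lower. By limma 0 of 9 had an adjusted p under 0.05 and 0 of 9 had an unadjusted p under 0.05, and the percentage called over all genes was 0, with 1070 of 19505 genes at an unadjusted p under 0.05. Odor and vehicle GFP+ samples were apart for 0 of the 9, against 3.21% of all genes and 1.48% of receptors.

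The largest difference, odor minus vehicle in GFP+ cells, was that of Olfr1019, at levels of 8.22 ± 1.03 in odor and 7.89 ± 0.50 in vehicle samples (SD, n = 4 each). It came to 0.33 with a 95% interval of -0.64 to 1.31. Olfr17 differed by 0.24, with an interval of -0.31 to 0.79, and Olfr160 by 0.19, with an interval of -0.23 to 0.61. Differences beyond these bounds are outside the 95% intervals. For Olfr73 the difference was -0.12, between -0.58 and 0.33, and for Olfr15 it was -0.11, between -0.61 and 0.39. Olfr2, Olfr124 and Olfr1440 differed by -0.04, -0.06 and 0.04. Olfr16 was the least precise, at 0.18 with an interval from -1.36 to 1.72, and its GFP+ samples spread by 1.3 log2 units (SD) in each arm.

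**Figure D4:**
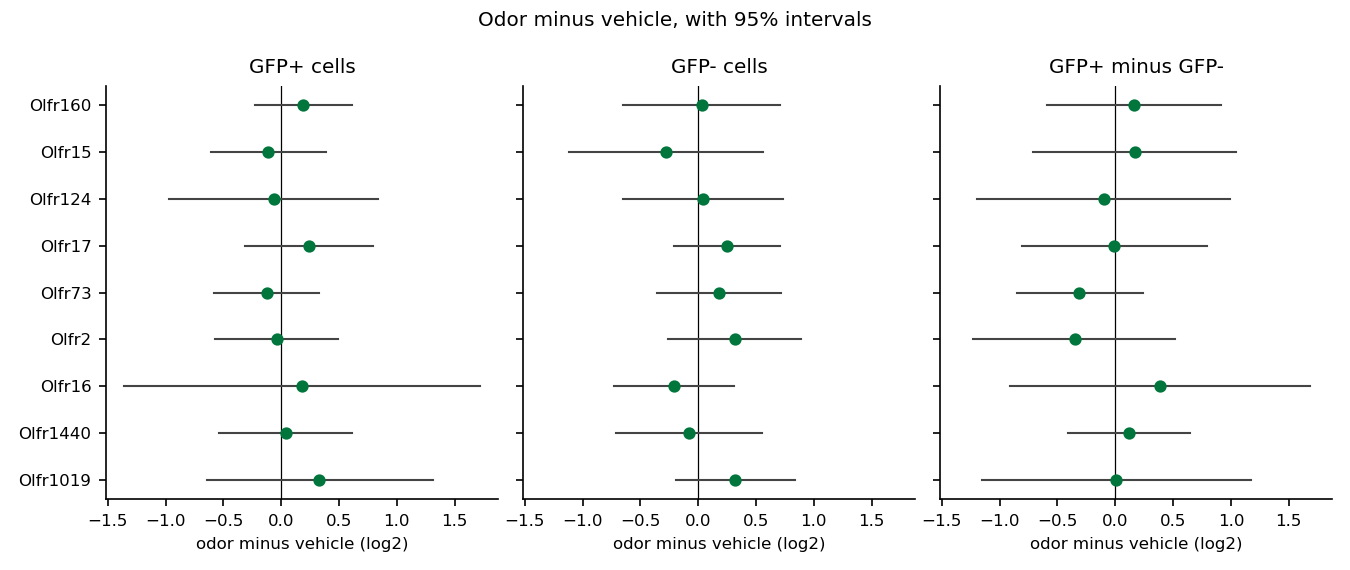
Odor minus vehicle difference (log2, x axis) of each receptor in GFP+ cells (left), GFP- cells (middle) and in the within-pool difference of GFP+ and GFP- cells (right), with 95% intervals. Each interval spans 0, and the widest in GFP+ cells is that of Olfr16, from -1.36 to 1.72.

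In GFP- cells 0 of 9 receptors passed, with 0 of 9 at an unadjusted p under 0.05 and 0.00513% of all genes and 0.0926% of receptors called, in the lower direction. Odor and vehicle samples overlapped for each of the 9, whereas they were apart for 2.48% of all genes and 0.833% of receptors. The differences ran from Olfr15 at -0.28, with an interval of -1.12 to 0.56, to Olfr2 and Olfr1019 at 0.32, with intervals of -0.26 to 0.89 and -0.19 to 0.84. The levels of Olfr1019, the receptor with the largest drop in the GFP+ fraction, were 13.25 ± 0.48 in odor and 12.92 ± 0.19 in vehicle GFP- samples (SD, n = 4 each).

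For the difference between GFP+ and GFP- cells, odor against vehicle, 0 of 9 receptors passed, with 0 of 9 at an unadjusted p under 0.05 and a percentage called over all genes of 0, with 654 of 19505 genes at an unadjusted p under 0.05. The within-pool differences of the arms were apart for 0 of the 9, against 2.02% of all genes and 1.39% of receptors. Odor minus vehicle, they shifted by 0.39 for Olfr16, with an interval of -0.91 to 1.68, by -0.35 for Olfr2, with an interval of -1.23 to 0.52, and by -0.31 for Olfr73, with an interval of -0.85 to 0.24. The Olfr73 call in odor pools and the Olfr124 call in vehicle pools were thus not shown to be particular to either arm, as for Olfr124 the shift was -0.10 with an interval of -1.20 to 0.99. For Olfr160, Olfr15, Olfr1440, Olfr17 and Olfr1019 the shifts were 0.16, 0.17, 0.12, -0.01 and 0.01.

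The receptors low in GFP+ cells were lowest in the same pools. Olfr16, Olfr1440 and Olfr1019 each had their lowest GFP+ level of each arm in the pools numbered 3, with 7.20, 7.04 and 6.90 in the odor and 6.70, 7.41 and 7.19 in the vehicle pool. This held for 3 of 9 receptors (33.3%), 14.5% of all receptors and 8.87% of all genes. Apart from Olfr1440 in the vehicle pool, these levels were not above the brightest background probe of their array. That probe was at 7.30 in odor and 7.26 in vehicle, so the order rests on signals near background. In GFP- samples Olfr16 (11.13 in odor, 11.31 in vehicle) and Olfr1440 (10.55 and 11.27) were also lowest in the pools numbered 3, but Olfr1019 was not. Neutrophil markers, a list of 6 genes such as S100a8 and Ltf, were also lowest in these pools. Their mean log2 level in GFP+ samples of replicates 1 to 4 was 7.09, 5.85, 5.22 and 5.63 in odor pools and 6.65, 6.52, 5.50 and 5.81 in vehicle pools. In GFP- samples it was 16.11, 15.13, 14.75 and 15.63 in odor pools and 16.36, 15.60, 14.55 and 15.31 in vehicle pools. The GFP+ means of the neutrophil markers lay below the brightest background probes, at 7.19 to 7.89. Other markers did not all follow. In GFP+ samples the log2 of the summed intensities of the 45 markers was highest in pools numbered 3, at 16.30 in odor and 16.31 in vehicle. The mean log2 level of the 45 was lowest there in vehicle, at 6.38, but not in odor, at 6.31. Immature neuron markers were highest there in vehicle, at a mean of 9.08, but not in odor, at 9.0. The part of these cell types, and of the Y-linked difference, in the receptor levels was not tested. Without both pools numbered 3, the calls of the 3 receptors held in both arms.

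**Figure D5:**
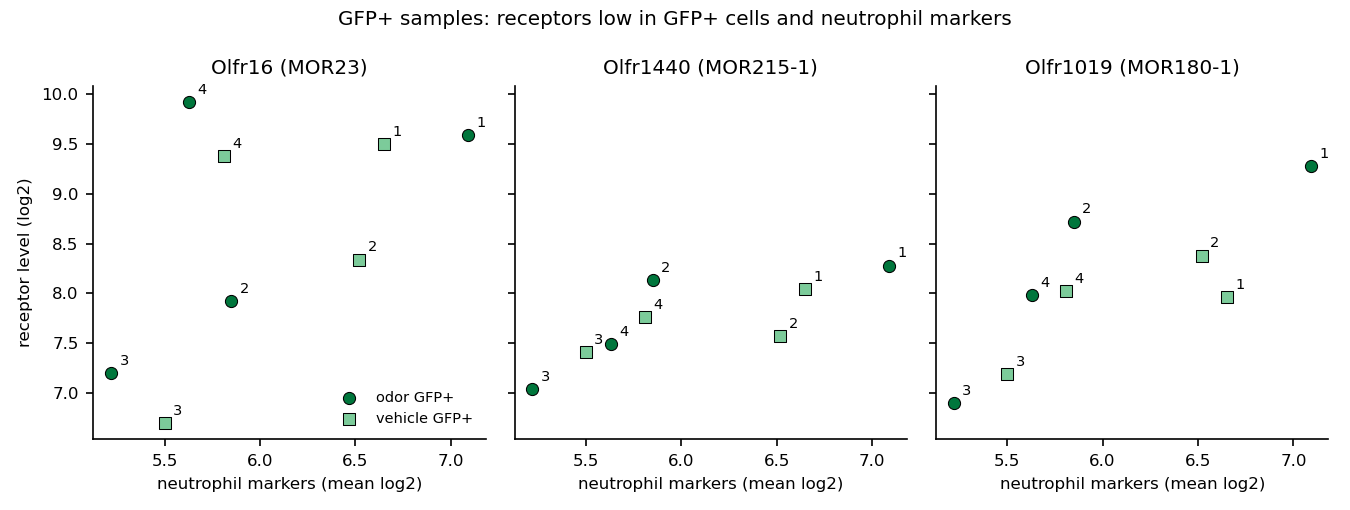
Log2 level of Olfr16, Olfr1440 and Olfr1019 (y axis) against the mean log2 level of 6 neutrophil markers (x axis) in the 8 GFP+ samples, with circles for odor, squares for vehicle and the replicate number beside each point. Both samples numbered 3 sit at the lower left, at marker levels of 5.22 and 5.50. All marker means lie below the brightest background probes, at 7.19 to 7.89. Of the receptor levels in samples numbered 3, only that of Olfr1440 in vehicle is above the brightest background probe of its array.

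Across all 16 samples, Olfr1440 and Olfr1019 had levels that correlated at 0.976, Olfr16 and Olfr1019 at 0.914, and Olfr160 and Olfr15 at 0.918. Olfr160 and Olfr1019 ran opposite to each other, at -0.949. These coefficients describe samples that fall into 2 fractions, so they carry the difference between GFP+ and GFP- cells. The gene most like Olfr1440 was Ltf, the neutrophil protein lactoferrin, at a Pearson correlation of 0.992, and the receptor most like it was Olfr728 at 0.991. Olfr1019 was most like Fyb, an adaptor of blood cells, at 0.987, and Olfr224 at 0.984. For Olfr160, Olfr15 and Olfr16 the most alike of all genes were themselves receptors, Olfr695 at 0.988, Olfr1013 at 0.973 and Olfr354 at 0.956. The weakest likeness among the 9 was that of Olfr17 with Olfr807, at 0.84. For the remaining receptors the most alike were Apobec3 with Olfr2 at 0.901, Hspa2 with Olfr73 at 0.857 and Vps9d1 with Olfr124 at 0.94.

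Receptor genes lie in clusters, and the neighbours of the 9 included genes that were higher, genes that were lower and genes that did not pass. Olfr1441, 27.1 kb from Olfr1440 and of the same subfamily, differed by 0.07 ± 0.17 in odor and 0.13 ± 0.17 in vehicle pools, and Olfr76, the third measured member of that subfamily, by 3.11 in odor and 1.26 in vehicle pools. Next to Olfr1019, Olfr1018 was lower in GFP+ cells, at -2.53 ± 0.19 in odor and -2.24 ± 0.19 in vehicle pools (adjusted p = 1.54e-06 and 4.35e-06), whereas Olfr1020 was at -0.28 ± 0.51 in odor and -0.22 ± 0.51 in vehicle pools and did not pass. On one side of Olfr124, Olfr125 was higher, at 2.56 ± 0.26 in odor and 2.26 ± 0.26 in vehicle pools (adjusted p = 2.37e-05 and 6.38e-05), while Olfr123 on the other side did not pass in either arm.

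Around P2 the picture was more even. Olfr715, 29.9 kb from Olfr17, was lower in GFP+ cells, at -0.61 ± 0.17 in odor and -0.67 ± 0.17 in vehicle pools (adjusted p = 0.0299 and 0.0185). Olfr714 on its other side was at -0.47 ± 0.30 in odor (adjusted p = 0.322) and -1.21 ± 0.30 in vehicle pools (adjusted p = 0.0159). Of the 10 measured members of the MOR263 subfamily of P2, 0 were higher, and 2 were lower in odor and 3 in vehicle pools, with Olfr713, the neighbour of Olfr2, lowest at -2.37 in odor and -2.01 in vehicle pools. In the MOR171 subfamily of M72, 20 of 36 were higher and 8 lower in odor pools, and 18 were higher and 8 lower in vehicle pools. Over all receptors 43.3% were higher and 23% lower in odor pools, and 43.2% and 25.6% in vehicle pools. Olfr874, next to M71, was higher at 1.34 ± 0.28 in odor and 1.07 ± 0.28 in vehicle pools (adjusted p = 0.00535 and 0.0191).

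A wider list of receptors with a published ligand, map or transgenic line gave a comparison for the 9. Of 63 listed, 59 were measured. In GFP+ cells of odor pools 34 of them were higher and 10 lower, against 43.3% and 23% of all receptors. Their median difference was 0.94, against 0.47 over all receptors. In vehicle pools 32 were higher and 13 lower, against 43.2% and 25.6% of all receptors. The median there was 1.05, against 0.40. The members with the largest positive differences in odor pools were Olfr211 at 4.23 ± 0.58 in odor and 4.24 ± 0.58 in vehicle pools, Olfr1509 (MOR83, or MOR244-3), a receptor for the urinary odorant (methylthio)methanethiol, at 3.36 ± 0.24 in odor and 3.87 ± 0.24 in vehicle pools, and Olfr876 at 3.12 ± 0.21 in odor and 2.45 ± 0.21 in vehicle pools (SE, n = 4 pools). At the other end stood Olfr1507 (MOR28), a receptor much used in studies of receptor choice, which was not above the brightest background probe in any GFP+ sample and was at least 90.7-fold lower in GFP+ cells of odor pools and at least 96.0-fold lower in those of vehicle pools. It was followed by Olfr672 at -3.98 ± 0.34 in odor and -4.67 ± 0.34 in vehicle pools, and Olfr1395 at -3.73 ± 0.42 in odor and -4.63 ± 0.42 in vehicle pools. Between odor and vehicle, 0 of the 59 passed in GFP+ cells, in GFP- cells or in the difference of the fractions.

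Receptors of this family signal through Gnal, Adcy3, Cnga2 and Ano2, and reach the membrane with the help of Rtp1. Of 24 gene symbols listed for transduction and receptor trafficking, 21 were measured. In odor pools 2 of the 21 were higher and 2 lower in GFP+ cells, with a median difference of 0.17. Over all genes 7.96% were higher and 10.6% lower in odor pools, and 8.86% and 10.8% in vehicle pools. The phosphodiesterase gene Pde1c was higher by 0.67 ± 0.12 and the chloride channel gene Ano2 by 0.44 ± 0.12. Rgs2, a regulator of G protein signalling, and the receptor kinase gene Grk3 were the lower ones. In vehicle pools 4 were higher, namely Pde4a at 0.64, Pde1c at 0.61, Slc24a4 at 0.48 and Ano2 at 0.38, and the same 2 were lower. Rgs2 was not above the brightest background probe in any GFP+ sample, and was at least 3.4-fold lower in GFP+ cells of odor pools and at least 4.42-fold lower in those of vehicle pools. Grk3 was not above it in either fraction of either arm, with means of 4.28 in odor GFP+ and 5.28 in odor GFP- samples, so its call compares signals at background. Between odor and vehicle 0 of the 21 passed in any comparison.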

How the data were processed

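Per the labels, the deposited values were made by the authors with Affymetrix Expression Console from Clariom S arrays hybridised with cRNA from 50 to 100 ng of total RNA. The labels name no step of that software, so how background was removed, arrays were scaled and probes summarized is unknown here. The scale of the deposited values is not labelled, and they were taken as log2 from their range and shape. Of 28846 probes, 19572 had 1 gene symbol in the platform annotation. Where a gene had several probes, the brightest over all arrays was used, which left 19505 genes. Gene symbols were matched to RefSeq (GRCm38.p6), from which the positions and the printed sequences come.

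For each pool, the GFP- level was subtracted from the GFP+ level, and these differences were tested with limma 3.58.1 in R 4.3.3 over all genes, as odor pools against 0, vehicle pools against 0 and odor against vehicle. Odor and vehicle samples were also compared within each fraction. P-values were two-sided, with Benjamini-Hochberg adjustment across all genes and a threshold of 0.05, and each SE rests on a moderated variance that the arms share. The fits were tested on simulated data. Each limma p-value sets a difference against this moderated estimate of the spread between pools of 3 mice. The number 3 stands in the titles of a pair of vehicle pools, of which the one with the later code was taken as 4. GFP+ and GFP- samples of a pool deviated from their group means together (correlations of 0.109 to 0.249 across genes). Same-numbered GFP+ samples of the 2 arms did so too, at 0.114 to 0.242, and were taken as paired by number in an alternative fit. The number of arrays limits the precision, and detection calls were not used. All 10 listed receptors were named by rule, as were the 3 highest and 3 lowest called genes of the wider receptor list and the most alike gene of each receptor. The receptors, lists and tests were chosen with earlier results of these data known.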

Additional observations from a re-analysis of the deposited data

Results flagged for a closer look

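In 54 groups of 4 samples (9 receptors in 4 sample groups and 2 sets of within-pool differences), 2 held a value far from the other 3, by a criterion that chance meets in about 1 group in 20. Olfr2 (I7) lay at 6.27 in the vehicle GFP+ sample of replicate 3, against 6.84 to 6.93 in the other vehicle GFP+ samples. Olfr15 (MOR256-17) lay at 14.03 in the vehicle GFP+ sample of replicate 1, against 14.78 to 14.91 in the others.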

How the results depend on the processing

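The calls of Olfr160, Olfr15, Olfr16, Olfr1440 and Olfr1019 held in 16 of 16 alternatives in both arms. Olfr15 exceeded Olfr124 by 1.43 to 1.61 leaving out 1 pool. Without both pools numbered 3, an alternative chosen after seeing the data, it did so by 1.70. Centring shifts both probes of an array alike and cancels in this difference, and unmoderated variances leave its mean as it is. Those settings are therefore no test of it. Over the 4 replicate numbers as a block, also added later, the mean was the same 1.52. The exact sign-flip test of Olfr15 against Olfr124 there gave p = 0.125, the smallest 4 values allow, and did not pass. Of the 9 receptors 5 to 8 were called in odor pools and 5 to 6 in vehicle pools leaving out 1 pool. Scaling moved the whole scale. The median difference of all genes in odor pools was 0.115 as reported, 0.456 with median centring and -0.345 with receptor-median centring, and the share of calls that were higher was 42.9% as reported, 86.5%, 8.2% and, with quantile normalization, 56.6%. In vehicle pools these medians were 0.109, 0.454 and -0.164 and these shares 45.1%, 86.5%, 17.2% and 58.4%, from 3835 calls as reported, 12265 with median centring, 3479 and 4729. In odor pools 3620 genes were called as reported, 12346 with median centring and 5601 with receptor-median centring. Of the 1080 receptors in odor pools, 468 were higher and 248 lower as reported, and 393 higher and 356 lower with receptor-median centring. In each of these settings Olfr17, Olfr73 and Olfr2 kept a negative difference. Olfr124 in odor pools passed with median centring and without vehicle replicate 1 or 2, and Olfr17 in odor pools with receptor-median centring. The causes were not tested.

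Between odor and vehicle, 0 of 9 receptors passed in any alternative, and uncalled differences near 0 changed sign. With receptor-median centring the shift of the fractions' difference was -0.03 for Olfr160, -0.02 for Olfr15, -0.07 for Olfr1440 and -0.18 for Olfr1019, and the GFP+ difference of Olfr1440 was -0.07. Without both pools numbered 3, the GFP+ difference was 0.01 for Olfr73, 0.07 for Olfr15 and 0.07 for Olfr124, and the GFP- difference 0.03 for Olfr15 and 0.14 for Olfr1440. Leaving out 1 pool, the shift of the fractions' difference ran from -0.55 to 0.41 for Olfr1019, -0.46 to 0.36 for Olfr124, -0.03 to 0.34 for Olfr1440, -0.11 to 0.60 for Olfr15, -0.06 to 0.78 for Olfr16, -0.09 to 0.40 for Olfr160 and -0.26 to 0.28 for Olfr17. The GFP+ difference ran from -0.02 to 0.77 for Olfr1019, -0.41 to 0.26 for Olfr124, -0.14 to 0.27 for Olfr1440, -0.42 to 0.66 for Olfr16, -0.27 to 0.08 for Olfr2 and -0.25 to 0.06 for Olfr73. The GFP- difference ran from -0.19 to 0.35 for Olfr124, -0.26 to 0.22 for Olfr1440, -0.63 to 0.04 for Olfr15 and -0.13 to 0.24 for Olfr160.

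With the replicate number as a block, which pairs the arms, 0 of 9 receptors passed in GFP+ cells, in GFP- cells or in the difference of the fractions, and no limma call changed. Same-numbered pools deviated together at 0.066 to 0.332 in GFP- samples and 0.097 to 0.305 in the within-pool differences, so the numbers pair these only in part. The planned comparison of Olfr151 with Olfr160 was not run. In GFP+ cells, levels of Olfr2 throughout and of Olfr16, Olfr1440 and Olfr1019 in some samples were not above the brightest background probe, which limits their differences.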
